A study of Mus musculus with 4 samples.

Results

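Transporter genes of the blood-brain barrier were examined in brain cells of a mouse model of cerebral arteriovenous malformation. The 10 members were named by gene symbol, with earlier results of these data known, and no measured value enters the rule: Slc2a1, Slc16a1, Slc7a5, Mfsd2a, Abcb1a, Abcg2, Abcc4, Slco1a4, Slco1c1 and Slc22a8. All 10 were found among the 24873 genes listed, and all 10 passed the filter of a mean of at least 10 normalized counts, as did 20485 of all genes. A normalized count is the number of reads on a gene divided by 1 factor for each library.

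RNA was sequenced from 2 control and 2 tamoxifen libraries, and each library held cells pooled from 3 mice. All mice, controls included, carried the genotype Cdh5cre;Mgpflox/flox, in which a tamoxifen-activated Cre recombinase under the promoter of VE-cadherin, an endothelial gene, removes Mgp (matrix Gla protein, a BMP inhibitor). Mice of the tamoxifen group were injected with 75 mg/kg on each of 5 days, starting at 10 weeks of age. Control mice, labelled No Tamoxifen, were left without it, so that tamoxifen itself and the loss of Mgp cannot be told apart here. The cells were taken on day 9. The sample labels call them tdTomato+ brain cells, whereas the methods of the study describe a CD31+CD45- sort, which enriches endothelial cells and whose CD45- gate would leave out most white blood cells. The table heads its columns C and A. Columns with C were taken to be controls, and those with A (for AVM) to be the tamoxifen group, although the labels hold no A.

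The endothelium of brain vessels is sealed by tight junctions, so that most nutrients reach the brain through carriers in the endothelial membranes. Carriers of the SLC family bring in glucose, lactate, amino acids and lipids, whereas ATP-driven ABC pumps return drugs and waste products to the blood. Carriers of organic anions move hormones, bile acids, drugs and waste products, some of them into the brain and others out of it. Brain endothelium holds far more of these carriers than endothelium elsewhere, and their expression depends in part on Wnt signaling from the surrounding tissue.

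Each library held between 35387438 and 49799321 reads on genes. Mgp (chromosome 6 from 136849433 to 136852821 of GRCm39) had 1094 and 1352 normalized counts in controls, against 945 and 909 after tamoxifen, and it was not called (log2 fold change -0.39, limma with BH adjustment, adjusted p = 0.0986). The count covers the whole gene and does not show whether the floxed part was lost. Over 15 endothelial genes the summed level was 1532706 and 1538867 normalized counts in controls, against 267784 and 134357 after tamoxifen. Marker genes of other cells were present and differed between the groups. The summed level of 10 astrocyte genes went from 30396 and 36220 to 159135 and 330117 normalized counts, that of 9 erythroid genes from 19246 and 39154 to 175672 and 114098, and that of 10 pluripotency genes from 108 and 170 to 58195 and 45222. The part of these cells in the transporter values was not tested. Slc2a1, Mfsd2a, Abcb1a, Abcg2 and Abcc4 overlap genes on the opposite strand, and as the strand setting of the counting is not given, reads from such partners cannot be told apart here. On the same strand, Slc16a1 overlaps Gm43581 and Gm43585, Slc2a1 overlaps Mir1957a, Abcb1a overlaps Gm42684 and Abcc4 overlaps Mir6391. For these no strand setting would tell the reads apart.

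All 10 transporters fell in the tamoxifen libraries, to between 6.75% (Slco1a4) and 44.4% (Slc16a1) of their control level. The median log2 fold change was -2.66, against 0.05 over all genes tested. Genes were called at an adjusted p under 0.05 and a log2 fold change over 1 in size, with limma on log2(normalized count + 1) and BH adjustment over all genes tested. By this rule 16.0% of all genes were called lower and 28.6% higher, whereas 10 of 10 transporters were called lower. The groups did not overlap, with tamoxifen lower, for 10 of 10 transporters and for 39.2% of all genes. In bulk RNA, fewer endothelial cells and less transporter RNA per endothelial cell cannot be told apart. The share of all normalized counts that fell on the 10 genes was 2.39% and 2.24% in controls and 0.689% and 0.391% after tamoxifen.

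**Figure D1:**
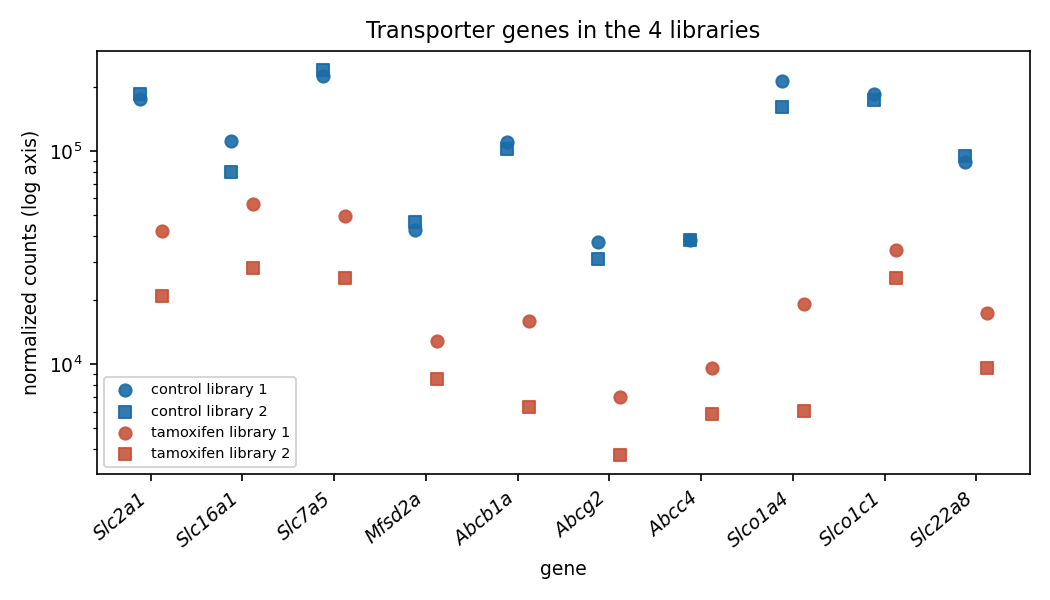
Normalized counts (log axis) of the 10 transporter genes in each library, with control libraries in blue and tamoxifen libraries in red. For every gene both red points lie below both blue points, and tamoxifen library 2 (square) lies below tamoxifen library 1 (circle).

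The 4 nutrient and lipid carriers included the smallest fall. Slc7a5 (chromosome 8 from 122607884 to 122634433), the light chain of the large neutral amino acid carrier LAT1, had 224676 and 239569 normalized counts in controls, against 49456 and 25403 after tamoxifen. Its control libraries lay close together, whereas the tamoxifen libraries were apart. The log2 fold change was -2.71 (SE 0.41, limma with BH adjustment, adjusted p = 0.000883). Slc2a1 (chromosome 4 from 118965908 to 118996365), the gene of the glucose carrier GLUT1, had 174504 and 185224 normalized counts in controls, against 42146 and 20957 after tamoxifen. It was 5.70-fold lower (log2 fold change -2.60, SE 0.39, limma with BH adjustment, adjusted p = 0.000921). Mfsd2a (chromosome 4 from 122840643 to 122855244) carries lysophospholipids with docosahexaenoic acid into the brain and holds back vesicle transport across the endothelium. It had 42749 and 46271 normalized counts in controls, against 12826 and 8491 after tamoxifen, a log2 fold change of -2.09 (SE 0.25, limma with BH adjustment, adjusted p = 0.000277).

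Slc16a1 (chromosome 3 from 104545811 to 104565780), the gene of the lactate and ketone body carrier MCT1, had 111235 and 79896 normalized counts in controls, against 56408 and 28416 after tamoxifen. The lower control library and the higher tamoxifen library came nearer to each other than for the other 9 genes. The log2 fold change was -1.24 (SE 0.39, limma with BH adjustment, adjusted p = 0.0282). This call was the least stable of the 10, with 7 of 14 alternatives past both thresholds. It was lost without tamoxifen library 2 (log2 fold change -0.74), and the adjusted p of limma was 0.15 without control library 1, 0.0648 without tamoxifen library 1, 0.0797 without the trend and 0.0503 without the filter. With equal library totals the log2 fold change was -0.77 and after quantile normalization it was 0.02.

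The 3 ABC efflux pumps had log2 fold changes between -3.40 and -2.35. Abcb1a (chromosome 5 from 8710022 to 8798575), 1 of the mouse genes of P-glycoprotein, which pumps many drugs back into the blood, had 109592 and 102653 normalized counts in controls, against 15917 and 6305 after tamoxifen. It was 9.55-fold lower, the second largest fall of the 10 (log2 fold change -3.40, SE 0.41, limma with BH adjustment, adjusted p = 0.000288). Without tamoxifen library 2 the log2 fold change was -2.74 and without tamoxifen library 1 it was -4.07. Abcg2 (chromosome 6 from 58561505 to 58672661), the breast cancer resistance protein, had 37407 and 31148 normalized counts in controls, against 7003 and 3753 after tamoxifen (log2 fold change -2.73, SE 0.29, limma with BH adjustment, adjusted p = 0.000181). Abcc4 (chromosome 14 from 118720103 to 118943924), the multidrug resistance protein MRP4, which exports organic anions and cyclic nucleotides, had 38180 and 38184 normalized counts in controls, which lay closest together among the 10 genes. After tamoxifen it had 9573 and 5862 (log2 fold change -2.35, SE 0.26, limma with BH adjustment, adjusted p = 0.000190).

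The organic anion carriers held the largest fall. Slco1a4 (chromosome 6 from 141751165 to 141802036), the gene of OATP1A4, which moves bile acids, steroid conjugates and drugs, had 212634 and 160422 normalized counts in controls, against 19143 and 6042 after tamoxifen. It was 14.8-fold lower (log2 fold change -4.10, SE 0.50, limma with BH adjustment, adjusted p = 0.000320), and leaving out 1 library gave -4.93 (tamoxifen library 1) to -3.27 (tamoxifen library 2). Slco1c1 (chromosome 6 from 141469705 to 141516710), the gene of OATP1C1, which takes up the thyroid hormone thyroxine, lies on the same chromosome. It had 185877 and 172800 normalized counts in controls, against 34512 and 25264 after tamoxifen (log2 fold change -2.60, SE 0.32, limma with BH adjustment, adjusted p = 0.000324). Its tamoxifen libraries were the closest of the 10, with library 2 at 73.2% of library 1. Slc22a8 (chromosome 19 from 8568476 to 8589541), the organic anion transporter OAT3, had 89068 and 94408 normalized counts in controls, against 17435 and 9584 after tamoxifen (log2 fold change -2.83, SE 0.32, limma with BH adjustment, adjusted p = 0.000211).

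All 10 transporters were lower in tamoxifen library 2 than in tamoxifen library 1, at 31.6% to 73.2% of it. The same held for 15 of 15 endothelial genes, at 43.5% to 61.1%, and for 58.0% of all genes tested. Between the control libraries the order differed from gene to gene, and control library 2 was at 71.8% (Slc16a1) to 108% (Mfsd2a) of control library 1.

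**Figure D2:**
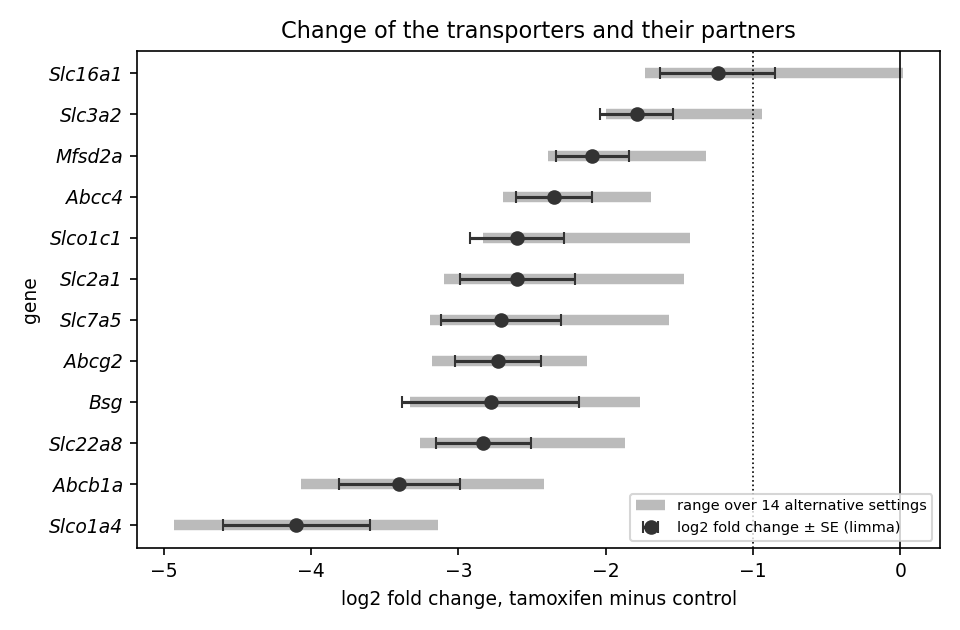
Log2 fold changes (tamoxifen minus control) of the transporters and of the carrier partners Slc3a2 and Bsg, with the standard error of limma as a black bar and the range over 14 alternative settings as a grey bar. Slco1a4 lies lowest at -4.10 and Slc16a1 highest at -1.24, and the grey bar of Slc16a1 is the only one that reaches 0.

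The genes of both glycoproteins that bring carriers to the membrane were also called lower. Slc3a2, the heavy chain that pairs with LAT1, had 52511 and 64209 normalized counts in controls, against 19482 and 14538 after tamoxifen (log2 fold change -1.79, SE 0.25, limma with BH adjustment, adjusted p = 0.000654). It came to -0.94 after quantile normalization, below the size limit. Bsg (basigin), which MCT1 needs to reach the membrane, had 657110 and 725288 normalized counts in controls, against 147564 and 68520 after tamoxifen (log2 fold change -2.78, SE 0.60, limma with BH adjustment, adjusted p = 0.00503). Without tamoxifen library 1 or 2 its adjusted p was 0.0544 or 0.0832 (limma with BH adjustment). The fall of Bsg was larger than that of Slc16a1, whereas the fall of Slc3a2 was smaller than that of Slc7a5. These differences between genes were not tested.

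Levels of different genes were compared per kilobase of exon, over all exons that GENCODE M39 annotates for a gene. In the control libraries Slc7a5 was highest, with 58494 and 62372 normalized counts per kb, followed by Slc2a1 with 37200 and 39485. Abcg2 was lowest with 3931 and 3274. Next above it was Abcc4 with 4421 in both. In the tamoxifen libraries Slc7a5 still led with 12876 and 6614 per kb, and Abcg2 was still last with 736 and 394. Between them the order changed. Slc16a1 moved from rank 5 to rank 2 with 10671 and 5376 per kb, and Slco1a4 from rank 4 to rank 8 with 2248 and 710. With the longest transcript as the length, Slc16a1 moved from rank 6 to rank 2 and Slco1a4 from rank 2 to rank 6. In controls, neighbours overlapped from the third to the seventh gene, namely Slco1c1 (25255 and 23478 per kb), Slco1a4 (24972 and 18840), Slc16a1 (21043 and 15115), Abcb1a (17820 and 16692) and Mfsd2a (16005 and 17324). After tamoxifen every neighbouring pair in the order overlapped except Mfsd2a (4802 and 3179 per kb) and Slc22a8 (2590 and 1424). Tamoxifen library 2 was lower for every gene, however, and within each tamoxifen library the order was nearly the same. Only Slco1c1 and Mfsd2a changed places, with Mfsd2a higher in library 1 and Slco1c1 higher in library 2.

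The make-up of the transporter RNA can be read within a library, without any scaling between libraries. Such shares depend on each other, and a larger share of Slc16a1 lowers those of the other genes. Of the per-kb sum of the 10 genes, Slc16a1 made 9.46% and 7.03% in controls and 20.8% and 19.7% after tamoxifen. Mfsd2a made 7.20% and 8.06% in controls and 9.36% and 11.6% after tamoxifen. In contrast, Slco1a4 went from 11.2% and 8.76% to 4.38% and 2.60%, and Abcb1a from 8.01% and 7.76% to 5.05% and 3.76%. Smaller shifts without overlap of the groups were found for Slc7a5 (26.3% and 29.0%, then 25.1% and 24.2%), Slc22a8 (5.95% and 6.52%, then 5.05% and 5.21%), Abcc4 (1.99% and 2.06%, then 2.16% and 2.49%) and Abcg2 (1.77% and 1.52%, then 1.43% and 1.44%). For Slc7a5 this depended on the length used, as its groups overlapped with the longest transcript as the length. Those of Slc22a8, Abcc4 and Abcg2 stayed apart with that length. The groups overlapped for Slc2a1, with 16.7% and 18.4% in controls and 17.5% and 16.4% after tamoxifen, and for Slco1c1, with 11.4% and 10.9%, then 9.14% and 12.6%.

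Each transporter was also set against the endothelial genes of the same library, as its log2 level minus the mean log2 level of 15 endothelial genes. These 15 genes, among them Flt1 (312914 and 283220 in the control, 43942 and 19956 normalized counts in the tamoxifen libraries) and Ptprb, a receptor phosphatase (225585 and 201409, then 36240 and 16765), fell by a mean of 3.01 on the log2 scale, and 15 of 15 were called lower. Relative to this mean Slc16a1 had 0.51 and -0.02 in controls and 2.02 in both tamoxifen libraries, a difference of 1.78. Mfsd2a went from -0.87 and -0.80 to -0.11 and 0.28, a difference of 0.92, and Abcc4 from -1.03 and -1.08 to -0.53 and -0.26, a difference of 0.66. Slco1a4 went the other way, from 1.45 and 0.99 to 0.47 and -0.21, a difference of -1.09. Abcb1a went from 0.49 and 0.34 to 0.20 and -0.15, a difference of -0.39. Its log2 fold change of -3.40 lay within the range of the 15 endothelial genes, from -3.43 to -2.75. The other 5 transporters differed by 0.19 (Slc22a8) to 0.42 (Slc2a1). With only Pecam1 and Cdh5 as the reference these 5 were nearer to 0, with Slc22a8 at 0.02, Abcg2 at 0.11, Slc7a5 at 0.13, Slco1c1 at 0.24 and Slc2a1 at 0.25. Leaving out 1 library gave Slco1c1 0.14 (tamoxifen library 2) to 0.68 (tamoxifen library 1) and Abcg2 0.12 (control library 2) to 0.43 (control library 1). Over 7 alternatives of reference, pseudocount and libraries Slc16a1 had 1.51 to 2.04, Mfsd2a 0.73 to 1.12, Slco1a4 -1.43 to -0.75 and Abcb1a -0.57 to -0.22. The exact permutation test (two-sided) gave p = 0.333 for each of the 10 genes, the smallest p that 2 libraries per group allow.

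**Figure D3:**
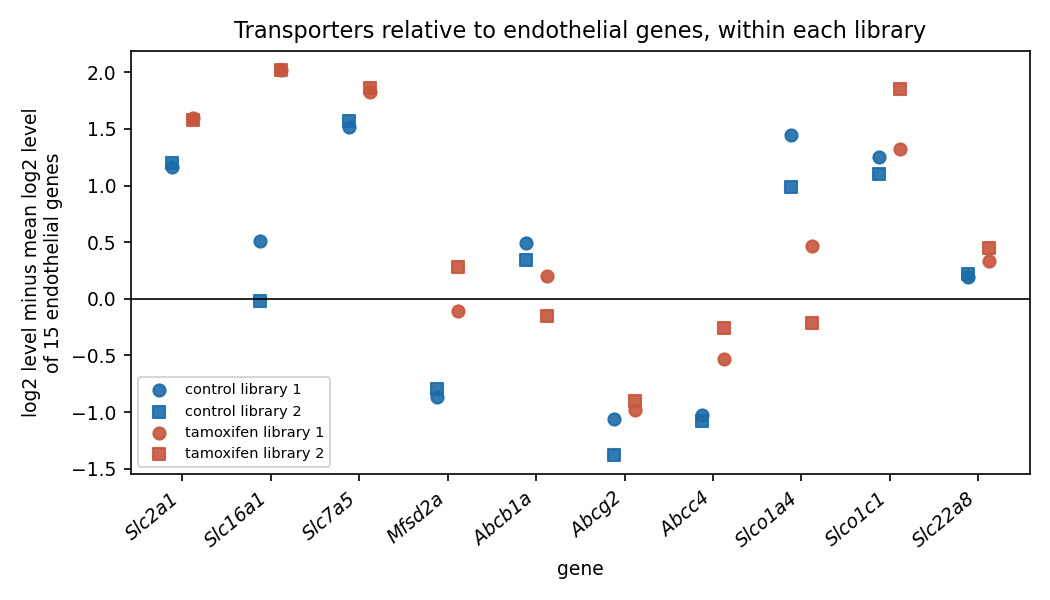
Log2 level of each transporter minus the mean log2 level of 15 endothelial genes, in each library. Slc16a1 lies at 2.02 in both tamoxifen libraries, above both controls, whereas Slco1a4 and Abcb1a lie below both controls after tamoxifen.

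Sequence before the start of each gene was read from GRCm39, over the 250 bases that precede the start of the canonical transcript in GENCODE M39. The letters CTTTGA, the core that TCF and LEF factors of the Wnt pathway bind, were searched on both strands. They were found for 4 of 10 transporters and in 12.5% of 16630 such windows of protein-coding genes. Other motifs were searched in the same windows and are given below. A match is a description of letters and not of a bound site. The windows of Abcb1a and Slc22a8 are shown 5′ to 3′ on the strand of the gene with the match in capitals, where TCAAAG is the match on the opposite strand. They lie at chr5:8709772-8710021 (plus strand) and chr19:8568226-8568475 (plus strand). Those of Mfsd2a and Slco1c1 run into exons of other transcripts of the same gene and are described only.
Abcb1a: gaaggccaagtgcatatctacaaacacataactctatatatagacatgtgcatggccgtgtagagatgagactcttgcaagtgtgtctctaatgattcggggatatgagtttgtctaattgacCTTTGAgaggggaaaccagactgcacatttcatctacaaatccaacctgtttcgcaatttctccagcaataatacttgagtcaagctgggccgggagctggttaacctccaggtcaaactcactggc
Slc22a8: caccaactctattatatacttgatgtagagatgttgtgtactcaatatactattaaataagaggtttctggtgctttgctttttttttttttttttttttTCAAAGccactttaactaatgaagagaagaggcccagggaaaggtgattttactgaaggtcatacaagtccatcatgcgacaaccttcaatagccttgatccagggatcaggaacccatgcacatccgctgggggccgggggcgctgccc

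The match of Mfsd2a begins 115 bases before the transcript start, that of Abcb1a 127 and that of Slc22a8 150. Slco1c1 holds 2 matches, at 65 and 27 bases before the start. The genes with a match had log2 fold changes of -2.09, -3.40, -2.60 and -2.83, within the range of the other 6.

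The transporters with the smallest and the largest fall differed in base composition, and their windows are shown for that reason, in the same way and with no match to CTTTGA. The window of Slc16a1 also lies in an exon of a long noncoding RNA on the opposite strand. They lie at chr3:104545561-104545810 (plus strand) and chr6:141802037-141802286 (minus strand).
Slc16a1: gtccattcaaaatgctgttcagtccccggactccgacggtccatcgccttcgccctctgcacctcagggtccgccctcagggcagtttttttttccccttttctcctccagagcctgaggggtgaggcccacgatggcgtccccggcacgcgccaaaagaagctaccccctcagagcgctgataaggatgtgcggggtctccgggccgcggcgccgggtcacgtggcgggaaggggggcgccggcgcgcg
Slco1a4: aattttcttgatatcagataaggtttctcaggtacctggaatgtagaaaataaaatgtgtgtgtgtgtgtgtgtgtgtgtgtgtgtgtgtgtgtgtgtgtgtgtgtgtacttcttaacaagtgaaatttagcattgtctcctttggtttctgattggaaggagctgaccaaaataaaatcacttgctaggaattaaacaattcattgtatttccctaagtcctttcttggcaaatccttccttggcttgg

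The window of Slc16a1 is 66.8% G and C with 25 CG dinucleotides, and that of Slco1a4 is 37.6% G and C with 0 CG dinucleotides. Slco1c1 also has 0 CG dinucleotides, with 38.4% G and C, and had a log2 fold change of -2.60. Slc7a5 has 27 CG dinucleotides, the most of the 10, with 63.2% G and C, and had -2.71. Whether base composition goes with the fall was not tested. The median over all windows was 55.6% and 11 CG dinucleotides, and the median of the 10 transporters was 60.4% and 11.5. The GC box GGGCGG, searched on both strands, was found for 5 of 10 transporters and in 44.9% of all windows. The letters TATAAA of the TATA box were found for 0 of 10 and in 8.4% of all windows. The SOX motif ACAATG was found for 1 of 10 (7.2% of all windows) and the FOX motif TGTTTA for 2 (9.7%). The CCAAT box was found for 3 of 10 (35.5%) and the AHR/ARNT core GCGTG for 4 (37.4%). The ETS motif CCGGAA was found for 0 of 10 and in 2498 of the 16630 windows. Whether any of these motifs or CTTTGA was enriched among the transporters was not tested.

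A further list held 17 other carriers known from brain endothelium, of which 15 were called lower, 0 higher and 2 not called, with a median log2 fold change of -2.49. Slc6a6, the taurine carrier, was the most abundant and had 135358 and 134748 normalized counts in controls, against 33432 and 18586 after tamoxifen. Slc7a1, which carries arginine and lysine, had a log2 fold change of -2.17, and Slc39a10, a zinc carrier, of -2.62. Slc19a3, a thiamine carrier, fell most (20420 and 17351, then 2594 and 957 normalized counts, log2 fold change -3.58), followed by Slc16a4 with -3.04. The 2 genes not called were Slc29a1, a nucleoside carrier with a log2 fold change of 0.73, and Abcc5 with 0.13. These were named because they were the exceptions, after their values had been seen.

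Receptors that carry proteins into or across the endothelium did not all move alike. Of 6, 4 were called lower and 1 higher. Tfrc, the transferrin receptor, had 60176 and 64579 normalized counts in controls, against 32287 and 20606 after tamoxifen (log2 fold change -1.27). It was below the size limit after rescaling to equal totals (-0.80), after quantile normalization (-0.30) and without tamoxifen library 2 (-0.95). Lrp8 had a log2 fold change of -1.71. It was below the size limit after quantile normalization (-0.95), and its adjusted p (limma with BH adjustment) was 0.0573 without tamoxifen library 1 and 0.0673 without tamoxifen library 2. Insr, the insulin receptor, had -2.16, with an adjusted p of 0.0502 in limma without tamoxifen library 2. Lrp1, a lipoprotein receptor that pericytes, neurons and astrocytes also express, rose from 3276 and 4553 to 25442 and 34711 normalized counts (log2 fold change 2.94, limma with BH adjustment, adjusted p = 5.63e-05).

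Wnt targets and barrier regulators were described in the same way. Of 14 tested, 12 were called lower, 0 higher and 2 not called, with a median log2 fold change of -2.19. Apcdd1, a Wnt target and inhibitor, had 159989 and 181747 normalized counts in controls, against 43706 and 24052 after tamoxifen. Tnfrsf19 had a log2 fold change of -1.69 and Nkd1, a Wnt feedback inhibitor, of -2.30. Foxl2 (-3.07) and the endothelial factor Sox17 (-2.93) fell most in this list.

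In contrast to the transporters, most of their relatives in the same families were called higher. Of 24 relatives tested, 17 were called higher, 4 lower and 3 not called, with a median log2 fold change of 1.84, beside 28.6% called higher over all genes. Of the 17, Abcb4, Abcc2, Slc22a6 and Slc22a7 had a control mean under 10 normalized counts and passed the filter only through the tamoxifen group, so that they had to differ. Abcc2 (3 and 3 reads) and Slc22a7 (0 and 2 reads) were at or under the floor of 3 reads in both controls, and the median was also 1.84 with both at the bound that this floor gives. In the control libraries the relatives were scarce, with a summed level of 19604 and 20346 normalized counts. In the tamoxifen libraries it was 53769 and 45073. Of these sums Slc2a3 alone made 105 and 168 in controls and 33405 and 27330 after tamoxifen. Without Slc2a3 the summed levels of the groups overlapped.

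Slc2a3, the gene of the glucose carrier GLUT3 that neurons, leukocytes and embryonic cells use, showed the largest rise in this list. It had 105 and 168 normalized counts in controls, against 33405 and 27330 after tamoxifen, and was 222-fold higher (log2 fold change 7.82, SE 0.24, limma with BH adjustment, adjusted p = 3.09e-06). Per kb of exon the level of Slc2a1 was 2650-fold and 1770-fold that of Slc2a3 in the control libraries, and 2.02-fold and 1.23-fold in the tamoxifen libraries. Slc2a3 (chromosome 6 from 122704768 to 122778599) lies near Nanog, a pluripotency gene on the same chromosome from 122679780 to 122691601, which went from 8.22 and 7.51 to 7823 and 5241 normalized counts. Nanog was named after its values had been seen.

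Further pairs of a transporter and a relative were also formed after their values had been seen and are given as a description. Slc16a3, the gene of the lactate exporter MCT4, had 43.8 and 46.3 normalized counts in controls, against 2125 and 1825 after tamoxifen (log2 fold change 5.42). Slc16a1 still exceeded it there 56.8-fold and 33.3-fold per kb, against 5430-fold and 3690-fold in the control libraries. Abcb1b, the other mouse P-glycoprotein gene, had 86.3 and 73.8 normalized counts in controls, against 972 and 594 after tamoxifen (log2 fold change 3.23). Abcb1a and Abcb1b are close paralogs whose reads may be split uncertainly. Abcb1b made 0.0229% and 0.0209% of the per-kb sum of both in controls and 1.74% and 2.66% after tamoxifen, or at most 7.51% with the longest transcript as the length. Abcb4, a phospholipid exporter of the same family, rose from 5.48 and 13.8 to 1055 and 991 normalized counts (log2 fold change 6.71). Abcc1 had 626 and 807 normalized counts in controls, against 2591 and 2400 after tamoxifen (log2 fold change 1.81). It made 0.903% and 1.16% of the per-kb sum of Abcc4 and Abcc1 in controls and 13.1% and 18.5% after tamoxifen.

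Mfsd2b, which exports sphingosine-1-phosphate from red blood cells and platelets, rose from 192 and 193 to 1052 and 741 normalized counts (log2 fold change 2.19). Slc22a6, the gene of OAT1, had 4.11 and 6.26 normalized counts in controls, against 58.5 and 125 after tamoxifen. Among the 4 relatives called lower were Abcg1, a cholesterol exporter (8694 and 7289, then 2435 and 1761 normalized counts, log2 fold change -1.94), and Slc7a8, the gene of the amino acid carrier LAT2 (3402 and 4145, then 1606 and 1478, log2 fold change -1.28). Slc7a8 was below the size limit with equal library totals (-0.81), and its adjusted p in limma was 0.0533 without tamoxifen library 2. Slco1a5, a close paralog of Slco1a4, was called lower with few reads (174 and 114, then 58.5 and 30.2 normalized counts, log2 fold change -1.72), and its adjusted p was above 0.05 without either tamoxifen library, without control library 1 and after rescaling to equal totals.

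**Figure D4:**
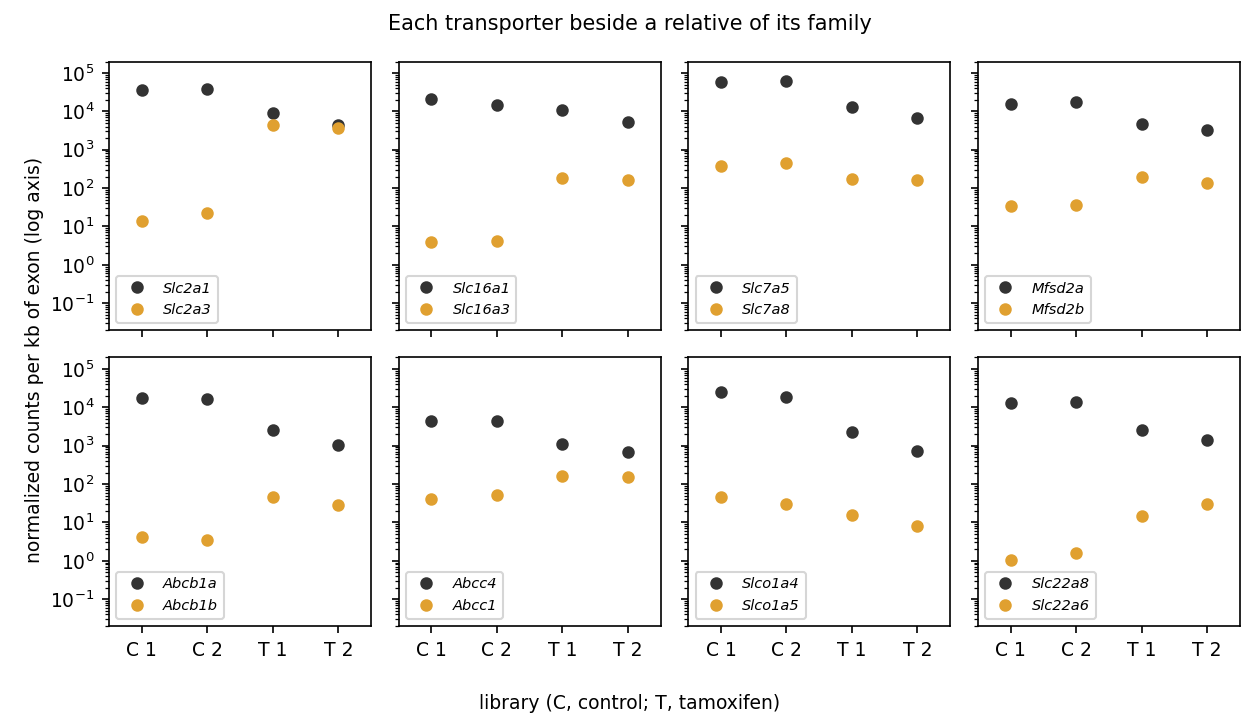
Normalized counts per kb of exon (log axis) in control libraries (C 1, C 2) and tamoxifen libraries (T 1, T 2) for 8 transporters in black and 1 relative of each in orange. Slc2a3 comes within 2.02-fold of Slc2a1 in the tamoxifen libraries, and the other relatives stay further below their transporter.

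Several of these transporters are also made by cells outside the endothelium, such as Slco1c1 and Slc16a1 by astrocytes, Slc22a8 by choroid plexus and Abcg2 by blood cell precursors. The values of marker genes are therefore given beside them. All 10 astrocyte genes were called higher (median log2 fold change 3.01). Slc1a2, a glutamate carrier, had 11050 and 18112 normalized counts in controls, against 69316 and 155205 after tamoxifen, and Slc1a3 had 3349 and 4930, then 37678 and 77311. Both were higher in tamoxifen library 2 than in library 1, the opposite order to that of the transporters, and without tamoxifen library 2 the adjusted p of Slc1a2 in limma was 0.0644. Of 8 choroid plexus genes, 6 were called higher. Ttr had 793 and 3108 normalized counts in controls, against 7070 and 41530 after tamoxifen, and Aqp1, which red blood cells also make, 152 and 267, then 7930 and 6142. The call of Ttr was lost without the trend (limma, adjusted p = 0.0734), without tamoxifen library 1 (log2 fold change 4.72, adjusted p = 0.0809) and without tamoxifen library 2 (2.17, adjusted p = 0.237). Of 8 pericyte genes, 2 were called higher and 0 lower. Rgs5 (16212 and 26543, then 14466 and 30134) and Vtn (7632 and 16895, then 10766 and 19724) overlapped between the groups.

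All 9 erythroid genes were called higher. Hbb-bs had 13778 and 27747 normalized counts in controls, against 98516 and 63429 after tamoxifen, and Slc4a1, the anion exchanger of red blood cells, 130 and 350, then 28051 and 19595. The call of Hbb-bs was lost without tamoxifen library 1 (limma, adjusted p = 0.137) and without tamoxifen library 2 (adjusted p = 0.0939). All 8 neutrophil genes (S100a9 and Ngp the most abundant, with log2 fold changes of 8.58 and 8.61), all 8 cell cycle genes (Mki67 6.37, Top2a 6.71) and all 10 pluripotency genes (Tdgf1 8.85, Dppa5a 8.51) were also called higher. Of these genes, 5 pluripotency genes (Nanog, Sall4, Zfp42, Utf1 and Lin28a), 3 neutrophil genes (Mpo, Elane and Prtn3) and Gata1 had a control mean under 10 normalized counts. They passed the filter only through the tamoxifen group, so that they had to differ. Across these lists, 1 pluripotency gene (Utf1) and 1 neutrophil gene (Prtn3) had at most 3 reads in each control library. The summed levels of the astrocyte, choroid plexus and pericyte genes were higher in tamoxifen library 2 than in library 1. Those of the erythroid, neutrophil, pluripotency and cell cycle genes were lower in library 2, the same order as for the transporters. How much of the RNA of each transporter came from these cells was not tested.

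**Figure D5:**
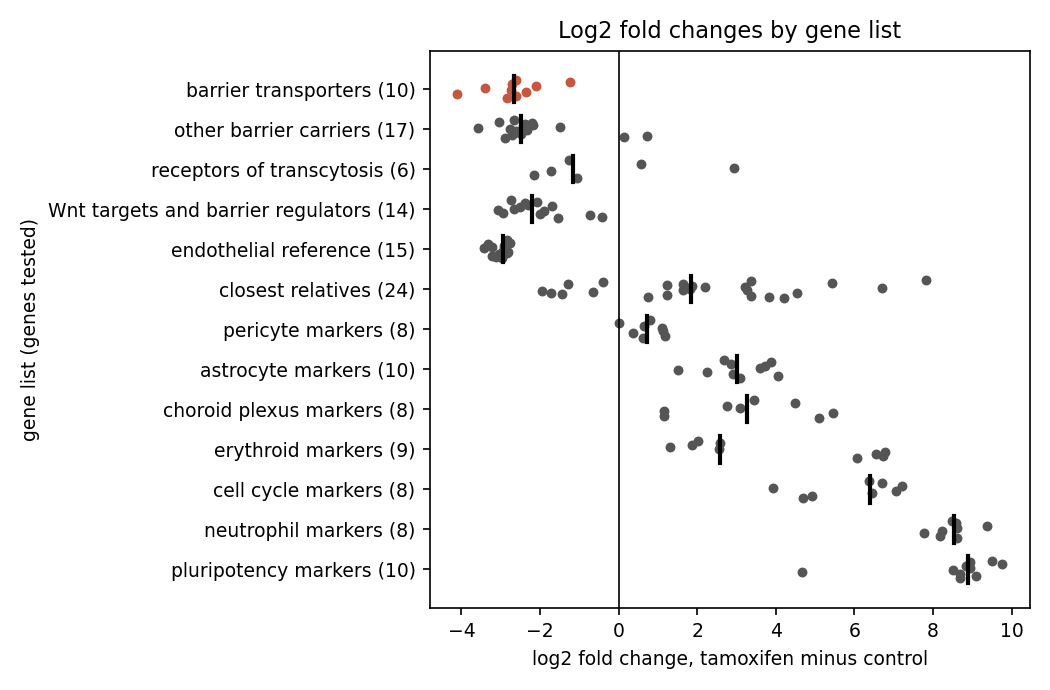
Log2 fold changes (tamoxifen minus control) of every gene tested in each list, with the median as a black bar and the number of genes in brackets. The transporters (red, median -2.66) lie beside the other barrier carriers, the Wnt targets and the endothelial genes, and on the opposite side of 0 from the medians of their relatives and of the 7 lists of other cells and the cell cycle.

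The direction of the transporters was also read under other scalings of the libraries. With equal library totals the median of all genes shifted to 0.52 and that of the 10 transporters to -2.19, and 9 of 10 remained past both thresholds, with Slc16a1 at -0.77. After quantile normalization the median of all genes was -0.23 and that of the transporters -1.63, with Slc16a1 at 0.02 and the other 9 at -1.32 or below. The share of calls over all genes that were higher was 64.1% in the main test, 79.7% with equal totals and 45.6% after quantile normalization.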

How the data were processed

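RNA of sorted brain cells was measured by RNA-Seq with a stranded mRNA kit in 2 control and 2 tamoxifen libraries. The authors used STAR 2.7.10a with GRCm39 for alignment and gene counts, removed low genes, and scaled with DESeq2 1.36.0. The annotation, strand setting and low-count limit are not given in the sources used here. Deposited was 1 signal value for each gene and library, counts divided by 1 factor per library, and 100% of them were whole multiples of 1 read (tolerance 0.001). A count of 3 reads was the floor, equal to 2.16 to 4.11 normalized counts, and covers counting error only.

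Genes were tested with limma 3.58.1 in R 4.3.3 (trend, BH adjustment) on log2(normalized count + 1), which understates changes of low genes. The step was tested on simulated data. The p-values rest on 2 pools per group. As alternatives the pseudocount was 0.5 or 5, the filter absent or 100, totals made equal, quantile normalization applied, the trend dropped, the replicate number blocked, recovered reads tested with DESeq2 1.42.0 or edgeR 4.0.16, and each library left out. The members and lists were chosen with earlier results of these data known. All transporters were named. From the carrier, receptor, relative and regulator lists the 3 most abundant genes and the 2 with the largest change were named, and from marker lists the 2 most abundant. Locations and promoters came from GRCm39 with GENCODE M39.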

Additional observations from a re-analysis of the deposited data

How the results depend on the processing

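The 10 transporters were called lower in the main test, and 9 or 10 of them under each alternative, with Slc16a1 the 1 that was lost (after quantile normalization its log2 fold change was 0.02). The count of all genes called was 9151. It was 5934 with a filter at a mean of 100 normalized counts, by which fewer genes were tested, and 4147 to 9700 when 1 library was left out, the lowest without tamoxifen library 2 and then 5024 without tamoxifen library 1. In these fits the lone library of a group is assumed to vary like the other group. Mgp had 0.08 with equal library totals and -0.65 after quantile normalization (limma with BH adjustment, adjusted p = 0.0128). Among pericyte markers that were not called, leaving out 1 library gave Rgs5 -0.52 (tamoxifen library 2) to 0.54 (tamoxifen library 1) and Vtn -0.21 (control library 1) to 0.93 (control library 2). With the replicate number as a block 9525 genes were called, and 10 transporters. Deviations of same-numbered libraries from their group means correlated at 0.0251 over the genes. With 2 libraries per group this rests on 1 difference in each group, so it cannot show whether same-numbered libraries belong together. No pairing was assumed. The count tests called 9241 genes (edgeR) and 8739 (DESeq2), and all 10 transporters. Without the fold change limit 12071 genes passed. The lowest transporter value, that of Abcg2 in tamoxifen library 2, was 3753 normalized counts, so that the number of libraries and not depth limited the precision of the 10 genes.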
